A study of Homo sapiens with 9 samples.

Results

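The MYC, MAX and MXD network was followed here through 8 genes, MYC, MAX, MXD1, MXD3, MXD4, MXI1, MNT and MGA, out of the 62703 gene identifiers in the count tables. They were chosen by name, as the genes of the MYC transcription factor, its partner MAX and the proteins that compete with MYC for MAX, and each symbol was matched to 1 Ensembl identifier. The libraries came from HepG2, an established human liver tumour line. They comprised 3 libraries from untreated cells (control), 3 from cells given eliglustat at 20 µM and 3 from cells given 30 µM, all treated cells for 72 h. Eliglustat inhibits glucosylceramide synthase, the enzyme that makes glucosylceramide, the precursor of most glycosphingolipids. The drug was dissolved in water, and the labels describe the controls only as untreated. Whether the 3 libraries of each group stem from independently grown cells is not in the labels, and the p-values thus measure only how the libraries varied, which may be technical.

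MYC is a basic helix-loop-helix leucine zipper protein that binds DNA as a dimer with MAX, mostly at E-box sequences, and activates genes of ribosome assembly, nucleotide synthesis and the cell cycle. MXD1, MXD3, MXD4, MXI1 (also called MXD2) and MNT form their own dimers with MAX at the same E-boxes and recruit SIN3 and histone deacetylases, which repress transcription. MGA also binds MAX, carries a T-box DNA-binding domain besides, and is the scaffold of the Polycomb complex PRC1.6. In liver cells MYC is known from regeneration and from tumours, while MXD genes are known to rise as many cell types stop dividing.

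The network genes differ in what stands before their start sites, and the stretches below are shown because they hold E-boxes, the sequences that the network's proteins bind, or motifs of other factors. RefSeq promoter windows of 250 bases before to 50 bases after the start (GRCh38.p14, either strand searched) were used for 7 of the 8 genes, all but MYC, in 12 windows. The canonical E-box CACGTG was found in 2 of the 7 genes, MXD4 and MNT, against 8.77% of 27305 genes and 7.26% of all 35116 windows. Capitals mark CACGTG, whose first base lies 238 bases before the MXD4 start (chr4:2262297-2262359, reverse strand) and 193 bases before the MNT start (chr17:2401203-2401298, reverse strand).
MXD4: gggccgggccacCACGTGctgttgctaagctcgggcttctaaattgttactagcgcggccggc
MNT: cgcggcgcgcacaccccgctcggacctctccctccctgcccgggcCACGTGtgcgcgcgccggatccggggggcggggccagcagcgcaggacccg

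The looser E-box CANNTG, of which CACGTG is 1 form, was found in 6 of the 7 genes, against 73.1% of all genes, so its presence sets none of them apart. The MXD1 window held 3 copies and no CACGTG. They are in capitals, the first 235 bases before the start (chr2:69914859-69915027, forward strand).
MXD1: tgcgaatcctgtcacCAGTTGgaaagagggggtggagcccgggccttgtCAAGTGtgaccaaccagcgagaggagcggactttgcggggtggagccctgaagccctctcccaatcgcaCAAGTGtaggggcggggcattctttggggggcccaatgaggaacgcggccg

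Other motifs were searched after these sequences had been looked at. The motif GTAAACA is known for forkhead factors of the FOXO type, which are known regulators of MXI1. It was found in 2 of the 3 MXI1 windows and in no other network gene, against 4.19% of all genes. In capitals, it begins 151 bases before the start in window 2 of MXI1 (chr10:110210035-110210131, forward strand), on the opposite strand, and 2 bases before it in window 3 (chr10:110225949-110226020, forward strand). The motif TTTCGCG is known for the E2F factors of the cell cycle. It was found in MXD3 alone of the 7 genes, against 1.6% of all genes. It begins at base 6 of the MXD3 transcript (chr5:177312728-177312792, reverse strand). A match of letters is a description of these windows and not a measured binding site.
MXI1 window 2: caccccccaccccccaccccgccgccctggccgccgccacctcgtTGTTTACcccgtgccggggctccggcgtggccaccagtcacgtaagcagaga
MXI1 window 3: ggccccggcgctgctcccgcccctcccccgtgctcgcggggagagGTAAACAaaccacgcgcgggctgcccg
MXD3: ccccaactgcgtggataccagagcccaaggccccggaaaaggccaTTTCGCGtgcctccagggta

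The libraries held between 21103757 and 26782810 read counts assigned to genes, and 17623 genes passed the filter on low counts, all 8 network genes among them. Levels are given as CPM, the usual read count normalised for depth, on library sizes scaled by the TMM method, and changes as log2 ratios with their standard error (SE), tested by edgeR's quasi-likelihood test with Benjamini-Hochberg adjustment over all 17623 genes. A gene is said to have risen or fallen where the adjusted p was under 0.05. Under this scaling the calls over all genes were near evenly divided, with 48.5% of them higher at 30 µM than in control and 49.2% higher at 30 than at 20 µM. With scaling by library size alone these shares were 30.6% and 28.3%, and the all-gene median shifted by -0.21 and -0.19 (log2). All 10 liver markers of HepG2 cells were present, with summed levels of 33140 to 34142 CPM in control, 37106 to 37557 at 20 µM and 41586 to 41945 at 30 µM. Most of that sum was APOB (a mean of 19950, 21521 and 27773 CPM). From control to 30 µM, ALB (669 to 485 CPM), AFP (1343 to 938), FGB (614 to 480) and HNF4A (651 to 555) had lower means. TTR (24.4 to 58.1 CPM), SERPINA1 (4585 to 5395) and AHSG (1570 to 2099) had higher means. APOA1 (1897 to 1883 CPM) and TF (2208 to 2146) differed little. DCN, PTPRC and MS4A1, which define fibroblasts, blood cells and B cells, had no count in any library. The summed fibroblast, endothelial and blood lists reached at most 40.9, 6.34 and 667 CPM, nearly all of the last from LYZ, which was higher at 30 µM. Most of the fibroblast sum was ACTA2 (a mean of 36.0, 34.3 and 21.5 CPM), and PDGFRB had means of 0.854, 1.16 and 3.01 CPM. The share of sequenced records aligned to several places, which are not counted, was 12.4 to 12.8% in control, 13.3 to 15.5% at 20 µM and 14.8 to 19.4% at 30 µM, and its part in the results was not tested. Control replicate 1, 20 µM replicate 3 and 30 µM replicate 3 deviated from their group means in the same direction across genes (mean correlation 0.34). Leaving out these 3 libraries changed the call of MXI1 at 20 µM and of no other network gene. In bulk libraries such as these, fewer cells of a type and less RNA per cell cannot be told apart.

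At 20 µM, 6 of the 8 network genes rose, MYC, MAX, MXD1, MXD4, MXI1 and MNT, and MXD3 and MGA did not pass the test. Over all genes 17.2% rose and 16.9% fell in that comparison. At 30 µM against control 7 rose and MXD3 fell, where 29.5% of all genes rose and 31.3% fell. Between the doses 6 rose and MXD3 fell at 30 µM, where 28.0% of all genes rose and 28.9% fell, and MXD4 did not pass the test. The libraries of the groups compared did not overlap for 7 of the 8 genes at 20 µM (44.5% of all genes), for 8 at 30 µM (65.0%) and for 7 between the doses (61.1%). The comparisons with control share the 3 control libraries. Scaled by library size alone, MGA did not pass the test at 30 µM against control (-0.04), while the other 7 kept their direction and stayed past it, and MGA fell at 20 µM (-0.09).

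**Figure D1:**
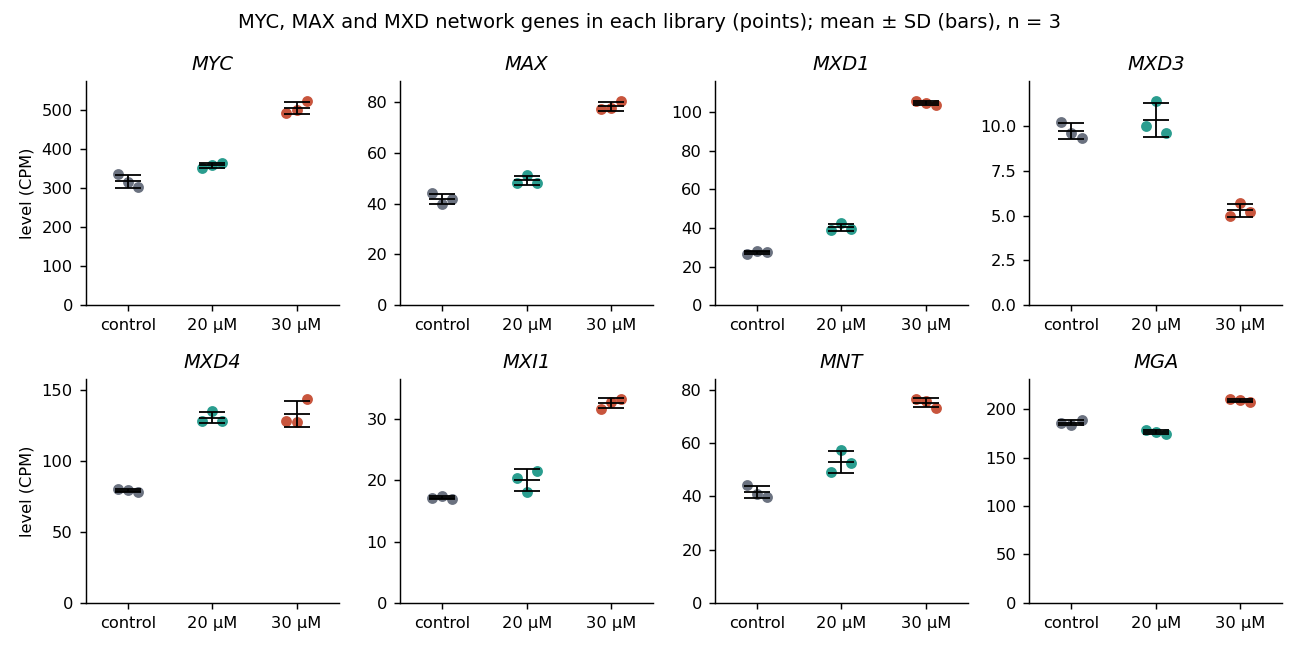
Levels of the 8 network genes in each library, in CPM on a linear axis from 0 that differs between panels; points are the 3 libraries of each group and bars the mean ± SD. MXD1 stands apart at 30 µM (103.8 to 105.6 CPM), MXD3 is the gene that is lower there (5.00 to 5.69 CPM), and the MXD4 libraries of both doses overlap above control.

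MYC itself (ENSG00000136997.22) rose at both doses. The 3 control libraries held 335.6, 315.5 and 303.3 CPM, the 20 µM libraries 351.8, 360.3 and 364.9 CPM, and the 30 µM libraries 493.9, 502.5 and 523.3 CPM. No library of a lower dose reached any of a higher one. The log2 change was 0.17 ± 0.0354 (SE, n = 3 per group) at 20 µM, a 1.13-fold higher level with an adjusted p of 1.72e-04 by edgeR, and 0.67 ± 0.0354 at 30 µM, 1.59-fold with an adjusted p of 1.32e-17. The step from 20 to 30 µM was 0.50 ± 0.0352. Its paralogs contributed little: MYCN, best known from neuroblastoma, had no count in any of the 9 libraries, and MYCL had 5 to 19 counts per library and passed no test (log2 0.58 ± 0.486 and 0.40 ± 0.50).

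MAX (ENSG00000125952.20; hg38 chr14:65006174-65102695, reverse strand), the shared partner with which MYC and the MXD proteins bind E-boxes, rose at both doses as well. It stood at 44.1, 39.8 and 41.8 CPM in control, 48.2, 51.3 and 48.3 CPM at 20 µM, and 77.2, 77.8 and 80.4 CPM at 30 µM. Here too the 3 groups were fully separate. MAX was 1.17-fold higher at 20 µM (log2 0.23 ± 0.0504, adjusted p = 3.94e-04 by edgeR) and 1.87-fold higher at 30 µM (log2 0.90 ± 0.0492, adjusted p = 3.36e-17). FNTB, a farnesyltransferase subunit on the opposite strand that overlaps MAX, had log2 changes of -0.24 and -0.47. Whether reads of FNTB reach the MAX count was not tested. The kit keeps strand, but the strand setting of the counting is not given in the sources used here.

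MXD1 (ENSG00000059728.11; chr2:69897688-69942945, forward strand), the founding MXD repressor, known for its induction during differentiation, had the largest change of the 8 genes at 30 µM. Control libraries held 26.7, 28.0 and 27.3 CPM. The level was 38.9, 42.5 and 39.7 CPM at 20 µM and 105.6, 104.9 and 103.8 CPM at 30 µM. The 30 µM libraries lay close together and far above every other library. The rise was 1.48-fold at 20 µM (log2 0.56 ± 0.0517, adjusted p = 1.38e-10 by edgeR) and 3.83-fold at 30 µM (log2 1.94 ± 0.0494, adjusted p = 2.77e-26), with 2.60-fold between the doses. SNRNP27 overlaps MXD1 on the same strand and had 5165 counts over the 9 libraries against 12484 for MXD1. Its log2 changes were -0.10 at 20 µM and 0.18 at 30 µM. Whether reads of SNRNP27 reach the MXD1 count was not tested.

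MXD4 (ENSG00000123933.17; chr4:2247432-2262294, reverse strand), a repressor known from quiescent and differentiated cells and 1 of the genes with a CACGTG above, followed another course. It measured 80.2, 79.4 and 78.0 CPM in control, 128.3, 135.6 and 128.5 CPM at 20 µM, and 128.1, 127.9 and 143.8 CPM at 30 µM. Both treated groups lay far above control and overlapped each other. MXD4 was 1.65-fold higher at 20 µM (log2 0.72 ± 0.0439, adjusted p = 1.00e-14 by edgeR), the largest change of the 8 genes at that dose, and 1.68-fold higher at 30 µM (log2 0.75 ± 0.0440). Between the doses the difference was 0.03 ± 0.0429, with a 95% interval of -0.06 to 0.11 (adjusted p = 0.62). Under library size alone that difference became -0.17 and passed the test (adjusted p = 9.37e-04).

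MXD3 (ENSG00000213347.11; chr5:177301461-177312757, reverse strand), the MXD gene known to be made in S phase of dividing cells, was the only 1 of the 8 to fall under TMM scaling (with library size alone MGA also fell, at 20 µM). Its level was 10.2, 9.60 and 9.31 CPM in control, 10.0, 11.4 and 9.59 CPM at 20 µM, and 5.00, 5.69 and 5.20 CPM at 30 µM. The first 2 groups overlapped and the 30 µM libraries lay below all others. At 20 µM the change was 0.09 ± 0.105, with an interval of -0.13 to 0.30 (adjusted p = 0.586). At 30 µM it was -0.87 ± 0.114 (adjusted p = 4.20e-08 by edgeR), a 1.83-fold lower level, and the step between the doses was -0.96 ± 0.113. MXD3 overlaps PRELID1, a lipid transfer protein of mitochondria, on the opposite strand. PRELID1 had 40346 counts over the 9 libraries against 1901 for MXD3 and was at 219 ± 5.29, 164 ± 11.6 and 157 ± 4.58 CPM (SD, n = 3) in the 3 groups. PRELID1 was thus lower at both doses, while MXD3 was lower at 30 µM. RAB24 overlaps MXD3 on the same strand and had 299 counts over the 9 libraries. Whether reads of PRELID1 or RAB24 reach the MXD3 count was not tested.

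MXI1 (ENSG00000119950.21; chr10:110207605-110287365, forward strand), the gene with forkhead motifs in 2 of its windows, stood at 17.1, 17.4 and 17.0 CPM in control, 20.4, 18.0 and 21.5 CPM at 20 µM, and 31.6, 32.8 and 33.2 CPM at 30 µM. The groups did not overlap, but 20 µM replicate 2 lay close to control. The rise at 20 µM was 1.16-fold (log2 0.22 ± 0.0721, adjusted p = 0.0167 by edgeR). That call was lost without control replicate 3 (adjusted p = 0.0533), without 20 µM replicate 1 (0.0573) or replicate 3 (0.129), and without the 3 libraries that deviate together (0.188). At 30 µM it was 1.90-fold (log2 0.92 ± 0.0698, adjusted p = 1.69e-13), and no alternative changed that call.

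MNT (ENSG00000070444.15; chr17:2384060-2401118, reverse strand), the most widely made of the MAX-binding repressors and the other gene with a CACGTG, rose in steps. It measured 44.1, 41.0 and 39.6 CPM in control, 49.1, 57.4 and 52.4 CPM at 20 µM, and 76.5, 75.9 and 73.2 CPM at 30 µM. The 3 groups did not overlap. MNT was 1.27-fold higher at 20 µM (log2 0.35 ± 0.0550, adjusted p = 5.08e-06 by edgeR) and 1.81-fold higher at 30 µM (log2 0.85 ± 0.0542, adjusted p = 2.09e-15).

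MGA (ENSG00000174197.19; chr15:41621224-41773081, forward strand) had the smallest changes of the 8 genes against control. Control libraries held 185.8, 183.7 and 188.6 CPM, the 20 µM libraries 178.1, 176.9 and 174.1 CPM, and the 30 µM libraries 210.4, 209.3 and 206.9 CPM. The 20 µM libraries were the lowest and the 30 µM libraries the highest, with no overlap. The change at 20 µM was -0.08 ± 0.0338 (interval -0.15 to -0.01, adjusted p = 0.0769 by edgeR). At 30 µM it was 0.17 ± 0.0337 (adjusted p = 6.52e-05) and between the doses 0.24 ± 0.0338 (adjusted p = 1.73e-07), a direction and size that turn on the scaling, since library size alone gave -0.04 and 0.05, neither past the test. At 20 µM the same scaling gave -0.09, past the test (adjusted p = 0.0324).

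**Figure D2:**
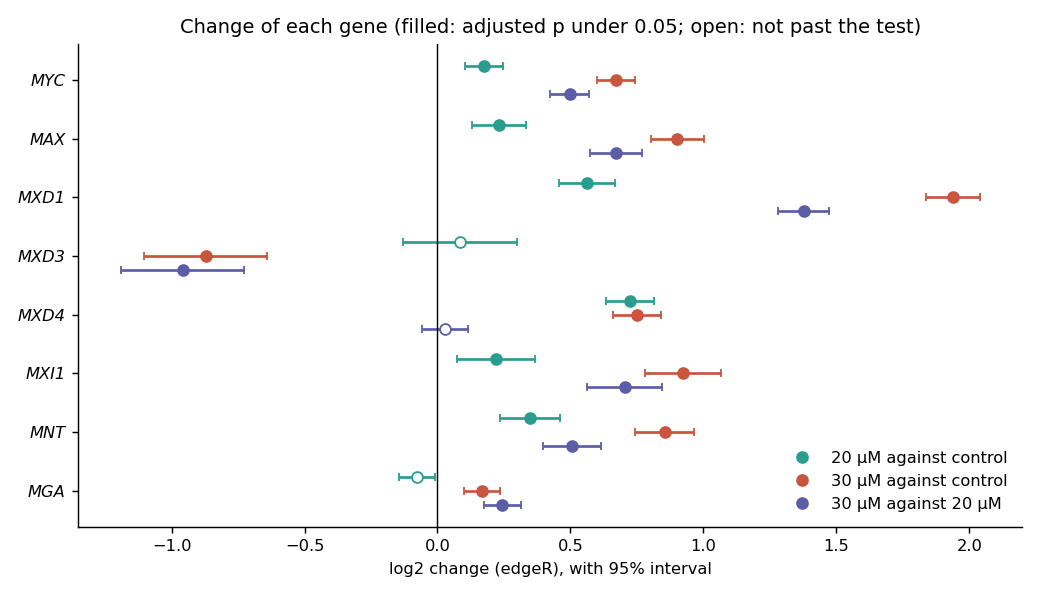
log2 change of each network gene in the 3 comparisons, with 95% intervals from the edgeR fit; filled points passed the test (adjusted p under 0.05) and open points did not. MXD1 at 30 µM (1.94) lies farthest to the right, MXD3 is the gene left of 0 at 30 µM (-0.87), and the intervals of MXD3 and MXD4 span 0 at 20 µM and between the doses respectively.

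To set the genes against each other, levels were divided by exon length and are given as CPM per kilobase of exon (RPKM). The length counts every annotated exon of a gene once, over all its transcripts (3001 bases for MYC, 7058 for MXD4). Transcripts made in these cells may be shorter, and no other length was tried. The order of the genes, their shares and the ratios between them depend on this choice. On this scale MYC was highest in every group, at 106 ± 5.45, 120 ± 2.21 and 169 ± 5.04 (SD, n = 3) in control, 20 µM and 30 µM. In control it was followed by MXD4 (11.2), MGA (10.5), MAX (9.46), MNT (4.76), MXD1 (4.31), MXI1 (3.73) and MXD3 (1.88), and no neighbours in that order overlapped. At 30 µM the order was MYC, MXD4 (18.9), MAX (17.7), MXD1 (16.5), MGA (11.8), MNT (8.62), MXI1 (7.06) and MXD3 (1.03), and the libraries of MXD4 and MAX overlapped. MXD1 had thus moved from below MNT to above MGA and MNT. At 20 µM MXD1 (6.35) and MNT (6.07) overlapped.

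The 5 repressors MXD1, MXD3, MXD4, MXI1 and MNT summed to 25.9 ± 0.478 RPKM in control, 37.3 ± 1.18 at 20 µM and 52.1 ± 1.07 at 30 µM (SD, n = 3). MYC exceeded that sum 4.09-fold in control, 3.21-fold at 20 µM and 3.24-fold at 30 µM. As log2 ratios these were 2.03 ± 0.0489, 1.68 ± 0.0411 and 1.70 ± 0.0154 (SD). The transcript ratio of MYC to these 5 repressors was therefore lower in each of the 6 treated libraries than in any control library, although MYC rose. The treated groups overlapped each other. MGA, which also binds MAX and stood at 10.5 RPKM in control, was left out of the sum. MYC to MAX stood at 11.2, 10.8 and 9.53, and the 5 repressors to MAX at 2.74, 3.35 and 2.94. The make-up of the sum shifted as well. MXD1 gave 16.6 ± 0.564% of it in control, 17.0 ± 0.272% at 20 µM and 31.7 ± 0.915% at 30 µM. MXD4 gave 43.3%, 49.7% and 36.2%, MNT 18.4%, 16.3% and 16.6%, and MXI1 14.4%, 11.6% and 13.6%. MXD3 went from 7.27% to 5.36% and 1.97%. These are ratios of transcripts, not of proteins, and no test was made on them.

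**Figure D3:**
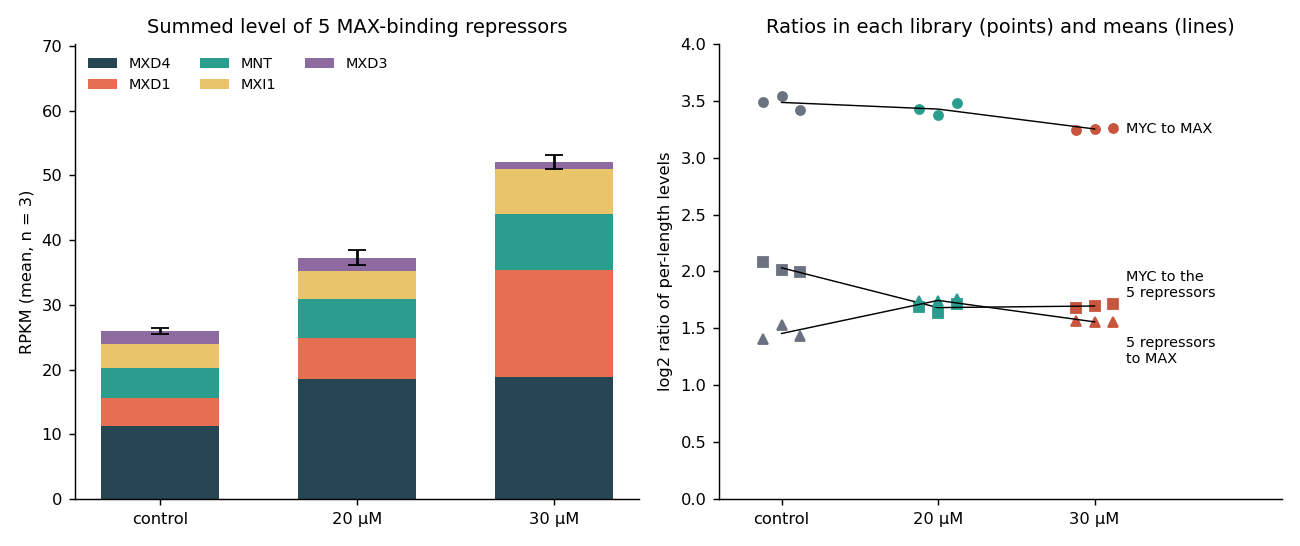
Left, stacked mean per-length levels of the 5 MAX-binding repressors in each group, with the SD of the sum over 3 libraries; right, log2 ratios of per-length levels in each library (points) with group means joined by lines. The sum goes from 25.9 in control to 37.3 at 20 µM, mostly through MXD4. The further step from 20 µM to 30 µM (52.1) is mostly through MXD1. The ratio of MYC to the sum is lower in both treated groups (1.68 and 1.70) than in control (2.03).

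The related MLX branch, in which MLX pairs with the glucose-sensing factors MondoA (MLXIP) and ChREBP (MLXIPL) and also with MNT and MXD proteins, moved unevenly. MLXIPL, which drives sugar and fat synthesis genes in liver, was at 217 ± 7.01 CPM in control, 291 ± 15.5 at 20 µM and 160 ± 1.59 at 30 µM (SD, n = 3). It rose at 20 µM (0.43 ± 0.0373, adjusted p = 3.92e-11 by edgeR) and fell at 30 µM (-0.43 ± 0.0380, adjusted p = 6.67e-12), with -0.86 ± 0.0379 between the doses. MLXIP rose at 30 µM (0.51 ± 0.0387) and not past the test at 20 µM (0.09 ± 0.0389). MLX rose at 30 µM (0.18 ± 0.0461), a call that library size alone turned to -0.03 (not past the test). Of 8 tested genes known as MLX, MondoA or ChREBP targets, 4 rose and none fell at 20 µM, and 4 rose and 4 fell at 30 µM. Over all genes 17.2% rose and 16.9% fell at 20 µM, and 29.5% rose and 31.3% fell at 30 µM. The medians were 0.29 and -0.11 beside all-gene medians of 0.01 and -0.04. ARRDC4, picked after its values were seen, was among the risers at 30 µM with only 1 to 14 counts per library. TXNIP, the arrestin-like brake on glucose uptake, rose from 4.28 ± 1.23 CPM in control to 9.41 ± 0.613 and 13.0 ± 1.23 CPM (log2 1.12 and 1.58). KLF10 rose by 0.83 and 2.67, and KHK, ketohexokinase of fructose breakdown, fell by 1.25 at 30 µM and was at 0.02 at 20 µM (not past the test).

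Genes that MYC is known to activate mostly fell against control at both doses, and more of them were higher than lower at 30 than at 20 µM. Of 58 such genes, 48 fell and none rose at 20 µM, where 16.9% of all genes fell and 17.2% rose, and their median log2 change was -0.34 where that of all genes was 0.01. At 30 µM against control 32 fell and 6 rose, with a median of -0.16 beside -0.04 over all genes. Between the doses 31 were higher and 12 lower at 30 µM (median 0.13 beside -0.03 over all genes). MYC itself rose in all 3 comparisons, by 0.17 at 20 µM, 0.67 at 30 µM and 0.50 between the doses. Over all genes 31.3% fell and 29.5% rose at 30 µM against control, and 28.0% were higher and 28.9% lower between the doses. Library size alone gave 49 lower and 3 higher at 30 µM, and 19 lower and 15 higher between the doses. The nucleolar gene NCL was at 837 ± 34.9, 667 ± 42.6 and 728 ± 24.8 CPM and fell at both doses (-0.33 and -0.20). ODC1, the first enzyme of polyamine synthesis, was at 323 ± 4.26, 224 ± 2.53 and 317 ± 8.16 CPM (SD, n = 3). It fell at 20 µM (-0.52 ± 0.0326) and did not pass the test at 30 µM (-0.02 ± 0.0323). NCL and ODC1 were picked for description after their values were seen. The largest falls at 30 µM were in TERT, the telomerase catalytic subunit (-2.27 ± 0.122), E2F2, a factor of S-phase entry (-2.14 ± 0.102), and UNG, the uracil-DNA glycosylase (-1.64 ± 0.0407). The 6 that rose at 30 µM were BOP1, WDR74, RRP9, RRP12 and BYSL, which serve ribosome assembly, and HK2, a hexokinase. RRP12 rose most among them (0.65 ± 0.0376, from 108 ± 0.739 in control to 171 ± 4.47 CPM), after falling at 20 µM (-0.30 ± 0.0385).

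Genes that MYC is known to repress mostly rose at 30 µM, where MYC rose too. Of 10 tested, 3 rose and 1 fell at 20 µM (median 0.16), where 17.2% of all genes rose and 16.9% fell. At 30 µM 7 rose and 1 fell (median 1.13, beside -0.04 over all genes), where 29.5% of all genes rose and 31.3% fell. With library size alone 3 of the 10 fell at 30 µM. CDKN2B, the p15 inhibitor of CDK4 and CDK6, was at 0.833 ± 0.155, 2.18 ± 0.151 and 18.2 ± 1.29 CPM and rose by 1.40 and 4.46. THBS1, the matrix protein thrombospondin, rose by 0.17 at 20 µM and 2.49 at 30 µM. The call at 20 µM was lost in 2 of 16 alternative fits, among them the fit without control replicate 3 (adjusted p = 0.154 by edgeR). NDRG1 rose by 0.84 and 1.39. CDKN1A, the p21 inhibitor, picked after its values were seen, fell at 20 µM (-0.17 ± 0.0463) and rose at 30 µM (0.98 ± 0.0447). The gene that fell at 30 µM was CEBPA, a liver differentiation factor (-0.99 ± 0.0763).

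**Figure D4:**
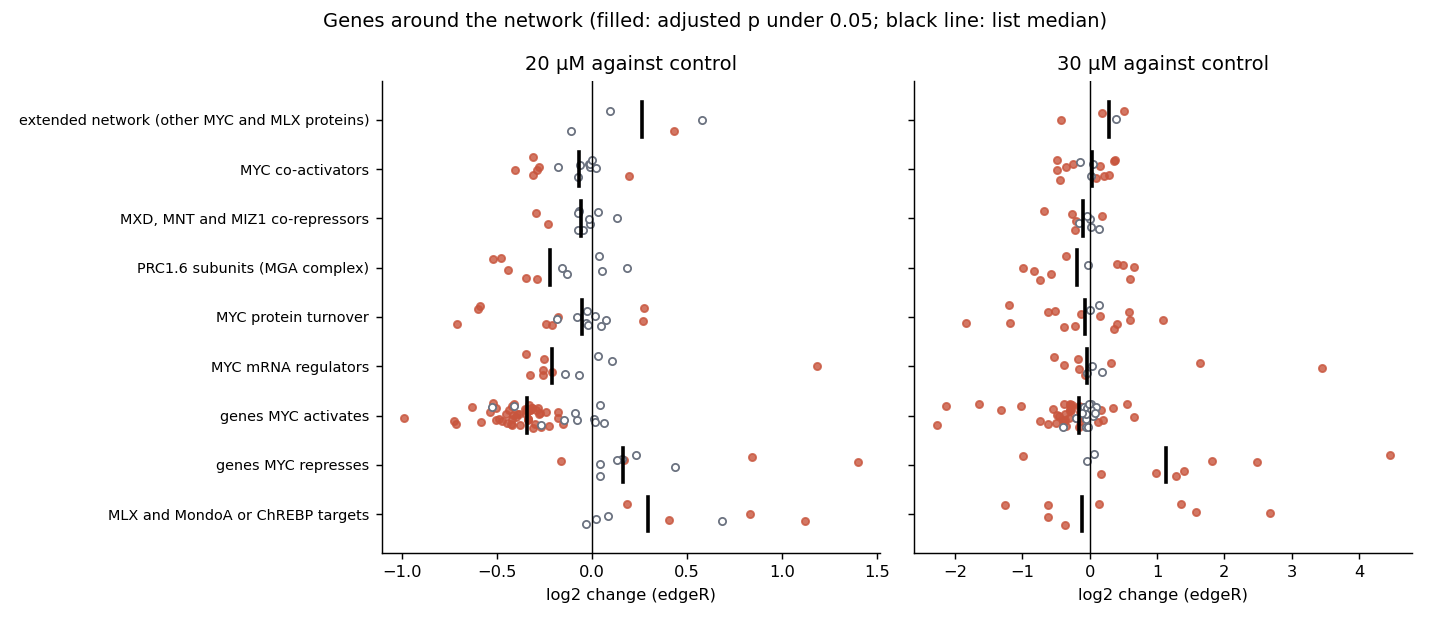
log2 changes of the genes around the network at 20 µM (left) and 30 µM (right) against control, on axes of different range; filled points passed the test, open points did not, and the black line is the list median. Genes that MYC activates lie mostly left of 0 at 20 µM (median -0.34), and genes that MYC represses lie mostly right of 0 at 30 µM (median 1.13).

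The cofactors of the network moved in both directions. Among 14 MYC co-activators 1 rose and 5 fell at 20 µM (median -0.07), and 6 rose and 5 fell at 30 µM (median 0.04). Over all genes 17.2% rose and 16.9% fell at 20 µM (median 0.01), and 29.5% rose and 31.3% fell at 30 µM (median -0.04), so the falls of the co-activators at 30 µM are near the background. KAT2A, the acetyltransferase GCN5, fell by 0.28 and 0.49, and the ATPases RUVBL1 and RUVBL2 fell by 0.41 and 0.49 and by 0.31 and 0.44. Library size alone gave 2 higher and 9 lower at 30 µM. Among 10 co-repressors of MXD, MNT and MIZ1, none rose and 2 fell at 20 µM (median -0.06), and 1 rose and 4 fell at 30 µM (median -0.10), and these falls too are near those shares of all genes. The deacetylase HDAC1, on which MXD repression is known to depend, fell from 97.2 ± 2.19 CPM to 82.7 ± 4.25 and 83.3 ± 1.04 CPM (log2 -0.23 and -0.22), the DNA methyltransferase DNMT3A fell by 0.68 at 30 µM, and SUDS3, a SIN3 subunit, by 0.26. Library size alone gave 8 lower and none higher.

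Of 10 partners of MGA in PRC1.6, none rose and 5 fell at 20 µM (median -0.22), and 4 rose and 5 fell at 30 µM (median -0.18). The shares of all genes were 17.2% higher and 16.9% lower at 20 µM (median 0.01), and 29.5% and 31.3% at 30 µM (median -0.04). PCGF6, the PCGF subunit that defines this complex, was at 16.7 ± 2.14, 11.7 ± 0.196 and 10.0 ± 0.767 CPM and fell by 0.52 and 0.74. TFDP1, the partner of E2F6, fell by 0.48 and 0.83, and CBX1, a heterochromatin protein, by 0.44 and 0.99. E2F6 itself (0.41), RYBP (0.65), YAF2 (0.60) and RNF2 (0.49), named after their values were seen, were the 4 that rose at 30 µM. MGA itself did not pass the test at 20 µM and rose by 0.17 at 30 µM.

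Regulators of MYC stability and of its mRNA included SKP2, which fell, and ZFP36, which rose. Of 16 genes of MYC protein turnover 2 rose and 6 fell at 20 µM, and 6 rose and 8 fell at 30 µM, with medians of -0.05 and -0.07 beside 0.01 and -0.04 over all genes. Among all genes 17.2% rose and 16.9% fell at 20 µM and 29.5% rose and 31.3% fell at 30 µM. SKP2, a ubiquitin ligase subunit that acts on MYC and on p27, went from 143 ± 4.89 to 94.6 ± 2.86 and 40.0 ± 0.787 CPM (log2 -0.59 and -1.84). CIP2A, which shields MYC from the phosphatase PP2A, fell by 0.60 and 1.18. The mitotic kinase AURKA, which is known to stabilise MYC proteins, fell by 0.71 and 1.20. The 6 turnover genes that rose at 30 µM, named after their values were seen, were PPP2R5A (1.09), GSK3B (0.59), FBXW7 (0.58), AXIN1 (0.41), USP36 (0.36) and HUWE1 (0.15). Of 11 regulators of MYC mRNA 1 rose and 6 fell at 20 µM, and 3 rose and 5 fell at 30 µM, with medians of -0.21 and -0.05; the share that rose at 30 µM is near that of all genes. ZFP36 (tristetraprolin), which promotes decay of AU-rich mRNAs, rose from 5.09 ± 0.644 CPM in control to 11.6 ± 1.73 and 55.7 ± 4.84 CPM (log2 1.19 and 3.44). Its relative ZFP36L1 rose by 1.64 at 30 µM and was at 0.10 at 20 µM (not past the test), and HNRNPD, the AU-rich element binding protein AUF1, fell by 0.33 and 0.53.

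Many other genes had patterns close to those of the network genes over the 9 libraries. Among 10138 protein-coding genes with a mean of at least 5 CPM, 2058 had a Pearson correlation of log2 CPM with MYC over 0.9, 2100 with MAX and 2159 with MXD1. Those nearest to MYC were RNF44 (0.998), PPP2R5C (0.997), a regulatory subunit of the phosphatase PP2A, and SMOX (0.997), spermine oxidase. Nearest to MAX were SMURF2, TNFAIP3 and ITPR3 (each 0.998). Among those nearest to MXD1 were SQSTM1 (0.999), the autophagy receptor p62, and TRIB3 (0.999), a stress-induced pseudokinase. SQSTM1 went from 261 to 444 and 1809 CPM, and TRIB3 from 221 to 301 and 621 CPM. The 9 points fall into 3 groups, so these correlations hold the differences between the groups.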

How the data were processed

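Count tables of 9 libraries were used, each of 62703 Ensembl identifiers with read counts deposited by the authors. Alignment with STAR 2.7.10a to hg38 and counting with HTSeq are named per the submitters' processing notes; the sources used here do not give the strand setting and annotation. Per the labels, total RNA was depleted of ribosomal RNA with a stranded kit, while the molecule field names polyA RNA, and the series' design text also speaks of a further incubation after treatment that the RNA protocol does not. Records in no single gene (40.6 to 44.0% of all) were left out of library sizes and tests.

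Symbols were matched for 62639 identifiers. Counts were fitted with edgeR 4.0.16 in R 4.3.3 (TMM, filterByExpr, robust quasi-likelihood fit, 1 mean per group over all 9 libraries); intervals are 95%. The median-ratio factors and DESeq2 1.42.0, upper-quartile factors, voom of limma 3.58.1, other filters, only the groups compared, a replicate block and each library left out were tried, and, chosen after seeing the data, library size alone and the fit without 3 libraries. The fit was tested on simulated data. Exon lengths and positions came from GENCODE 29, which holds 58246 of the identifiers, and promoters from RefSeq (GRCh38.p14).

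The members and lists were chosen with earlier results of these data known. Named from each of 9 lists (147 symbols, all matched) are up to 3 genes past the test, with at least 5 CPM on average and the largest change at 30 µM, and the whole MYC and MLX branch; other list genes are named as picked after their values were seen. The nearest patterns are the 3 protein-coding genes of highest correlation, of which 1 is not reported here. Levels of other groups of genes are not analysed here.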

Additional observations from a re-analysis of the deposited data

Results flagged for a closer look

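The share of sequenced records aligned to several places, which lies outside the gene counts, was above the control range in every treated library. It averaged 14.6 ± 1.12% (SD, n = 3) at 20 µM and 16.8 ± 2.38% at 30 µM, against 12.5 ± 0.199% in control. These records were not counted for any gene, and their part in the changes of the network genes was not tested. The 30 µM replicate 3 library had the highest share, 19.4%, and leaving it out changed no call of a network gene.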

How the results depend on the processing

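The number of network genes past the test stayed within 5 to 7 of 8 at 20 µM, 7 to 8 at 30 µM and 7 between the doses under all alternatives run. The replicate numbers do not pair the libraries (same-numbered deviations of control and 20 µM correlated at -0.18, 0.14 and -0.18, of control and 30 µM at -0.18, 0.12 and -0.20, and of 20 and 30 µM at 0.15, 0.08 and 0.35, where 0.1 in every pair was asked for); with a replicate block 6, 8 and 7 network genes passed, and 5952, 10635 and 9955 genes in all, against 6020, 10707 and 10041 without it. MXI1 at 20 µM lost its call in 4 fits, with log2 changes down to 0.16; why was not tested.

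Scaling by library size alone moved most. It reversed MGA at 30 µM against control (-0.0434), MXD4 between the doses (-0.167) and MLX at 30 µM (-0.0273), and the cause was not tested. At 30 µM against control it gave 3 risers and 49 fallers among genes MYC activates, 2 and 9 among co-activators, 0 and 8 among co-repressors, 3 fallers among genes MYC represses, 2 risers among MLX targets and 1 in the MYC and MLX branch. Between the doses it gave 15 risers and 19 fallers, 1 and 6, 0 and 8, and 3 fallers for the first 4 of these lists in that order, 1 riser each for MLX targets and the branch, 6 fallers in PRC1.6, and 4 risers and 4 fallers among mRNA regulators. At 20 µM it gave 1 faller in the branch. Median-ratio factors left 1 faller among co-activators between the doses. Without the 3 libraries that deviate together, between the doses 1 co-repressor rose and 2 repressed genes fell, and 2 mRNA regulators rose at 20 µM.

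The planned comparison of protein lengths was not run, since no protein table was used here. Low counts limit MYCL and MXD3, which have the largest standard errors of the MYC paralogs and the network genes.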
